A study of Mus musculus with 4 samples.

Results

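Peaks at the boundaries of long noncoding RNA (lncRNA) genes were examined in streptavidin ChIP-seq peak lists of 2 mouse thymocyte populations. A peak was a member when its midpoint lay within 1 kb of the start or end of a RefSeq lncRNA gene and not within 1 kb of a boundary of any protein-coding gene. On the nuclear chromosomes without Y, 278 of 5191 peaks of the PLZF-transgenic list (5.36%, exact 95% interval 4.76 to 6.00%) and 231 of 4239 peaks of the NKT list (5.45%, 4.79 to 6.18%) met this rule. The measured scores played no part in it. Members lay at 254 and 195 of 12697 lncRNA genes, 317 in all.

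Both populations came from thymus of mice on a C57BL/6 background whose age is not given. All carried transgenes for PLZF and for the bacterial biotin ligase BirA. A pull-down from sheared nuclei with streptavidin beads was meant to recover DNA bound to PLZF. The library labelled Tg thy came from PLZF tg/BirA tg mice and is called PLZF-transgenic here. The library labelled NKT came from PLZF tg/BirA tg/Valpha14 tg mice, which also carry a transgene for the invariant T cell receptor chain of natural killer T (NKT) cells. Its labelled cell type is also thymocytes, with nothing said of sorting, so NKT names a library and not a cell type, and peak lists hold no expression of marker genes by which to check it. Neither the promoters of the transgenes nor any pooling of animals is stated in the labels. There was 1 library per population, so no difference between libraries has a replicate check, and no p-value was computed. Since a control pull-down lacking the transgenic PLZF is not among the samples, a peak need not be a PLZF site. Each list gives a score per peak, the authors' own value, which ranks peaks within that list only. Depth is unknown. Intervals are exact (Clopper-Pearson) and cover counting error only, since peaks of 1 library are not replicates.

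PLZF, encoded by Zbtb16, is a BTB zinc finger protein on which the rapid effector functions of NKT cells depend. It binds DNA through its zinc fingers and recruits co-repressor complexes through its BTB domain. LncRNA genes are transcribed like protein-coding genes but yield RNA without a long open reading frame. Some act as structural RNAs of nuclear bodies or as hosts of small RNAs, many start at enhancers or run opposite to a coding gene, and most have no known function.

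The sequences that follow are promoter windows, from 250 bases before to 50 bases after an lncRNA start, on the strand of transcription (RefSeq, GRCm38.p6, the assembly that mm10 names). They are shown because a member peak of both lists covers them wholly or in part. The first 6 rank highest by NKT score, and that of Malat1 was added for its known gene. Capitals mark matches on either strand to the motifs described further on, and the window of Gm17196 holds none. The windows of C030013C21Rik and Gm31109 are largely the same DNA read on opposite strands, and the same peaks cover part of both. The windows are chr11:119834316-119834615 (minus strand), chr10:41553303-41553602 (plus), chr11:80509057-80509356 (minus), chr11:80509027-80509326 (plus), chr7:118259662-118259961 (plus), chr2:117417648-117417947 (minus) and, for Malat1, chr19:5802623-5802922 (minus).
Rptoros: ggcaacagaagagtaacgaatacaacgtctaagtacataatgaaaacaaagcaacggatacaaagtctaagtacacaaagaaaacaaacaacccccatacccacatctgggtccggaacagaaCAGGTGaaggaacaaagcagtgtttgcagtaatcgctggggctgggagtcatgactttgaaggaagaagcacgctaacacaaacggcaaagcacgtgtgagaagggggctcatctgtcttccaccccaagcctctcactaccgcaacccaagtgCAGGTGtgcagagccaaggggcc
Gm17196: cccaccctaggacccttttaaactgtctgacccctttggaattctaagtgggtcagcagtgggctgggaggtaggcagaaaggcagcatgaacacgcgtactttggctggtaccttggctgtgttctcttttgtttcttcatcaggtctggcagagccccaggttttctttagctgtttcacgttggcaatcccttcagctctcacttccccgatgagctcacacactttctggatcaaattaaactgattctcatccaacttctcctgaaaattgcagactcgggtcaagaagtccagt
C030013C21Rik: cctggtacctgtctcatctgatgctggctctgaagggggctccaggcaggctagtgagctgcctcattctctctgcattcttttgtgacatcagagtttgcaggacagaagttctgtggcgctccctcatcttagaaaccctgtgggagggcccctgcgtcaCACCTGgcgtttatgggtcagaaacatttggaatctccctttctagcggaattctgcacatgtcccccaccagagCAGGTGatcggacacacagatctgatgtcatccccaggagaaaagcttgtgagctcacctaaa
Gm31109: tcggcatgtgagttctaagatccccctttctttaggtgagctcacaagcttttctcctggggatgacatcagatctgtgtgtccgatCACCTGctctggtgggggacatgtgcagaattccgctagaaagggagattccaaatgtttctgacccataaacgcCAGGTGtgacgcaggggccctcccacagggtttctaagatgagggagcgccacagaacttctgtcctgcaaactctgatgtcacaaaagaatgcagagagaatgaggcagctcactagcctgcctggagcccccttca
Gm34999: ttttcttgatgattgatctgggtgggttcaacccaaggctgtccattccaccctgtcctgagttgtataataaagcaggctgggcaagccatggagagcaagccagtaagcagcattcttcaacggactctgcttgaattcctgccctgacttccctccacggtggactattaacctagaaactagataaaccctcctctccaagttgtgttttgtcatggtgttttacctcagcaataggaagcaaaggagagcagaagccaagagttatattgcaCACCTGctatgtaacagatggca
Gm13982: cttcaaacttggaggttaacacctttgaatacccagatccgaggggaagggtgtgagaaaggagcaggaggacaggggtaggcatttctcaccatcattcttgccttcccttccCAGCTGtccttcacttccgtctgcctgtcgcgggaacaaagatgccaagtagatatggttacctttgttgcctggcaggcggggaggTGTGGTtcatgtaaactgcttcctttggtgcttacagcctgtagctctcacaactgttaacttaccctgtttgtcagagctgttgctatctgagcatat
Malat1: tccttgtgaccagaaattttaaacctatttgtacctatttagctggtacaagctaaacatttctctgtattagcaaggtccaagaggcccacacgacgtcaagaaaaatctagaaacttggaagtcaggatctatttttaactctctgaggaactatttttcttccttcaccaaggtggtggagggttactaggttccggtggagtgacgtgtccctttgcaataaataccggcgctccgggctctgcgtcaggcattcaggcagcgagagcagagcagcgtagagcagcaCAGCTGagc

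The first question was whether members of one list were found again in the other. Of the PLZF-transgenic members, 139 of 278 (50%, 44.0 to 56.0%) were overlapped by at least 1 bp of an NKT peak, against 45.7% of all PLZF-transgenic peaks. Of the NKT members, 153 of 231 (66.2%, 59.7 to 72.3%) were overlapped by a PLZF-transgenic peak, against 60.7% of all NKT peaks. Peaks at protein-coding boundaries had shares of 44.4% (41.1 to 47.6%) and 58.9% (55.3 to 62.4%). The members' shares were above those of both, with intervals that meet. With a reciprocal overlap of 50% the shares of members were 30.9% and 36.8%, and those of all peaks 29.8% and 36.5%. The peak at the other end of an overlap was itself a member for 134 and 147 of them. Merging overlapping members gave 358 sites, of which 130 held members of both lists, 144 only PLZF-transgenic members and 84 only NKT members. At the level of genes, 132 lncRNA genes had a member in both lists, 52.0% of the PLZF-transgenic and 67.7% of the NKT genes. A gene counts here even where its peaks do not touch, as at Mm2pr. The same counts of sites and genes were not made for other peaks, so they say nothing particular to lncRNA genes.

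Overlap was more frequent at higher scores, among members and among all peaks alike. Each list was divided by score into 4 classes of equal size, 1 the lowest. In the PLZF-transgenic list 14 of 74 members of class 1 (18.9%) and 59 of 73 of class 4 (80.8%) were overlapped, and 15.9% and 84.9% of all peaks of these classes. In the NKT list 12 of 48 members of class 1 (25%) and 58 of 60 of class 4 (96.7%) were overlapped, against 31.2% and 95.2% of all peaks. Members and all peaks stood farthest apart in class 2. There, 45.3% (32.8 to 58.3%) of PLZF-transgenic members were overlapped and 31.1% (28.6 to 33.7%) of all peaks, and 55.4% (41.5 to 68.7%) of NKT members and 42.9% of all peaks.

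**Figure D1:**
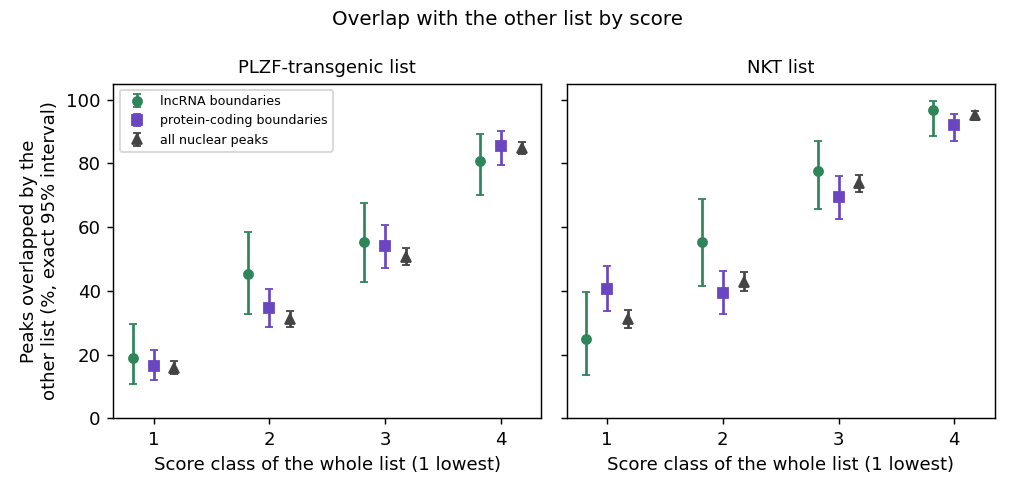
Share of peaks overlapped by the other list (%) in each score class of the whole list (1 lowest, 4 highest), for peaks at lncRNA boundaries, at protein-coding boundaries and for all nuclear peaks, with exact 95% intervals. Members go from 18.9% to 80.8% in one list and from 25% to 96.7% in the other, and their intervals include the value of all peaks except in class 2 of the PLZF-transgenic list.

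Members scored from 50.2 to 1391 and from 50.2 to 2773, in lists that reach 3133 and 3104. The median PLZF-transgenic member scored 111 (quartiles 69.1 to 213), as did the median of all peaks of that list (111, 70.3 to 202), and was 386 bp wide (all peaks 387 bp). The median NKT member scored 84.2 (58.0 to 131), where all NKT peaks had 73.8 (56.3 to 125), and was 236 bp wide (all peaks 224 bp). Peaks at protein-coding boundaries had lower medians, 98.4 and 70.8. Members that were not overlapped had medians of 78.4 and 57.1, against 161 and 104 for overlapped ones. Over the 130 sites in both lists the highest scores of each library correlated with a Spearman rho of 0.53, a description across sites of the same 2 libraries. The NKT score was the higher one at 27 of them (20.8%), and at 19.5% of all overlapped PLZF-transgenic peaks. The scores of the lists share no known scale, so this order shows no change between populations.

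**Figure D2:**
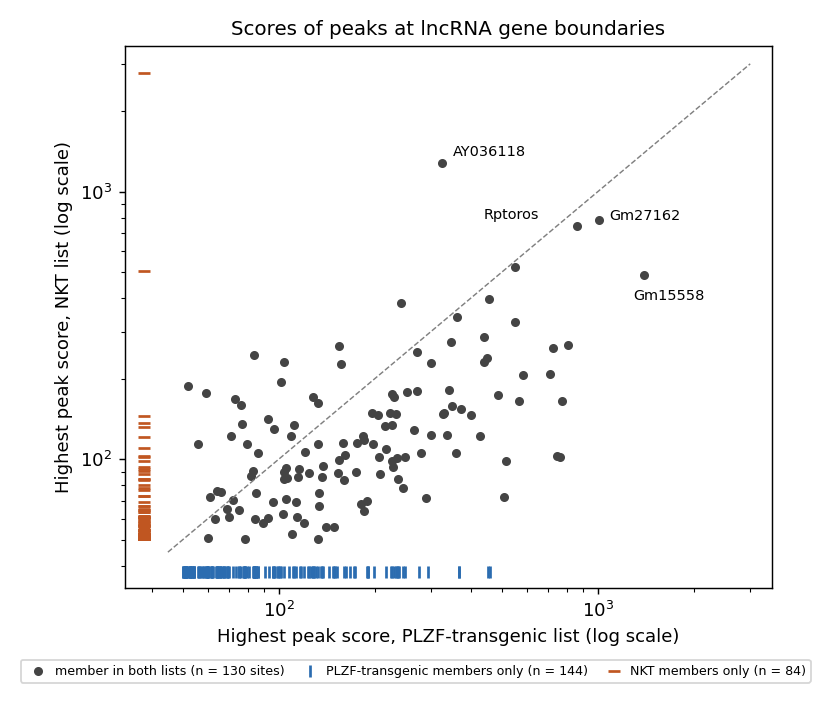
Highest peak score of each site in the PLZF-transgenic list (x axis) and the NKT list (y axis), both on log scales, with the dashed line at equal scores. Grey points are the 130 sites with members of both lists, and ticks along the axes are the 144 and 84 sites with members of 1 list, some of which are overlapped by a peak of the other list that is not a member. Most points lie below the line, and AY036118 lies far above it.

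Among the 10 highest members of each list, 3 lncRNA genes stood in both. First in the PLZF-transgenic list was a peak at the end of Gm15558 (chr16:10668349-10669503, score 1391, and 488 in the NKT list), inside Clec16a, a gene of autophagy linked to autoimmune disease. A peak at the higher boundary of Gm27162 (chr9:32928305-32929337) scored 1006 and lay 171 kb from the nearest coding gene. The NKT list split it into peaks of 783 and 419, and the PLZF-transgenic list had a further member at the same site. The peak at the start of Rptoros (chr11:119833880-119835046) scored 863 and 745. Rptoros runs opposite to Rptor, which encodes the Raptor subunit of the growth kinase complex mTORC1, and both peaks covered its whole promoter window shown above.

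Next in the PLZF-transgenic list came peaks at the starts of Gm34999 (808, and 267 in NKT), 15.4 kb from the gene of the RNA surveillance kinase Smg1, and of Gm51814 (772 and 165), 47.2 kb from Tnfaip3, whose product A20 restrains NF-kB. Gm46733 (759 and 102) lay 1.71 kb from Traf1, an adaptor of TNF receptors. Gm19897 (746 and 103) lay inside Sirt2, a deacetylase gene. Gm20753 (723, and 259.5 in NKT) lay 19.9 kb from Phlpp1, which encodes a phosphatase of AKT. Gm32510 had 1 PLZF-transgenic peak of 708 where the NKT list had 3, the highest of 208, at 3.86 kb from the splicing kinase gene Clk3. The start of Gm13982 (581 and 206, beside a second PLZF-transgenic member of 453) lay 74.6 kb from Rasgrp1, which activates RAS after T cell receptor engagement. All of the 10 highest members of the PLZF-transgenic list were overlapped by an NKT peak, as were 84.9% of all peaks of its class 4.

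The NKT list had a different head. Its highest member, at the lower boundary of Gm30461 inside Gpr132 (chr12:112860579-112861475), scored 2773. The PLZF-transgenic peak over it, at 3100.0, a value that several peaks of that list share, had its midpoint outside the window and was no member. Second was the end of AY036118 on chromosome 17 (chr17:39847396-39848830), with 1274 against 326 in the PLZF-transgenic list, at a place thought to be rich in repeats. Then followed, after Gm27162 and Rptoros, the end of Gm51710 inside Smad3, a transducer of TGF-beta signals (522, and 549 in the PLZF-transgenic list), and the end of Gm34647 (503, 125 kb from the nearest coding gene). Gm15558 was seventh, and the list went on with the start of Gm17196 inside Ccdc162 (396 and 456) and the end of LOC115487798 inside Tex14 (384 and 243). All of the 10 highest, and all of the 50 highest, NKT members were overlapped by a PLZF-transgenic peak. Of the 50 highest PLZF-transgenic members, 43 were overlapped. High peaks in general were mostly overlapped, 95.2% of all NKT and 84.9% of all PLZF-transgenic peaks of class 4, so these counts set no member apart.

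Members without a peak in the other list had lower scores. The highest of the 139 PLZF-transgenic members without an NKT peak lay at the starts of Gm19497 (461, 12.8 kb from Fmod), Gm30369 (366, inside Arhgef18) and 2310001H17Rik (275, 29.4 kb from Cd69), and at the ends of Gm35260 (368, 33.9 kb from Ggta1) and Gm40321 (295, 48.5 kb from Rflna). Cd69 encodes an activation marker that retains thymocytes in the thymus. The highest of the 78 such NKT members lay at Gm10512 (145), 5830432E09Rik inside the phosphatase gene Ptpre (132), Gm39281 (121), Mm2pr (110.1) and Gm41509 (103). The highest of these NKT scores stood at percentile 80.5 of its list, and the highest PLZF-transgenic one stood at percentile 94.0. Mm2pr had a PLZF-transgenic member of 53.5 a few bases away that did not touch the NKT peak.

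Of the list of regulatory lncRNAs, 45 of 55 symbols were lncRNA genes of the table, and 4 of these (8.89%) had a member in each list. Of all lncRNA genes, 2.0% had a PLZF-transgenic and 1.54% an NKT member. The list was chosen with earlier results known, so nothing is read from the difference. Malat1, the abundant RNA of nuclear speckles, had 1 peak in each over its start (328 and 148). Neat1, the scaffold of paraspeckles and the neighbour of Malat1 on chromosome 19, had peaks at both boundaries (its strand is not in the promoter table). The one at its higher boundary scored 249.7 in the PLZF-transgenic list and was split into peaks of 102 and 51.4 in the NKT list. The one at its lower boundary scored 96.5 and 129.9. Mirt1 had a pair of peaks at its end (PLZF-transgenic scores 226 and 226, NKT scores 175 and 135) and 1 at its start (82.0 and 86.5). At each of these 3 genes the peaks of the libraries overlapped.

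Other genes of that list had a member in 1 library. Bach2os, opposite to the gene of the lymphocyte repressor BACH2, had a PLZF-transgenic peak of 99.5, and Peg13, an imprinted RNA gene inside Trappc9, an NKT peak of 51.2. Of 21 hosts of small nucleolar RNAs, which are made from introns and guide the modification of ribosomal RNA, Snhg17 (153), Snhg7 (84.0) and Snhg16 (64.0) had a PLZF-transgenic peak (14.3% of the hosts) and Snhg8 (58.2) an NKT peak (4.76%). None of these 6 peaks was overlapped by the other list. For Bach2os and Peg13 this was nearly fixed beforehand, since they stand here for having a member in 1 library. The peaks at Snhg genes were not picked this way, but they are few. An overlap was also lacking for 54.3% of all PLZF-transgenic and 39.3% of all NKT peaks, so nothing is read from its absence here. None of the 14 miRNA host genes had a member, a number too small to differ visibly from the shares of all lncRNA genes. Of the 1005 miRNA hairpins of RefSeq, 145 lie in lncRNA genes. None of the 1005 lay within 1 kb of a member or in an lncRNA gene that has one. The same count over all peaks was not made, so nothing is read from this absence.

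**Figure D3:**
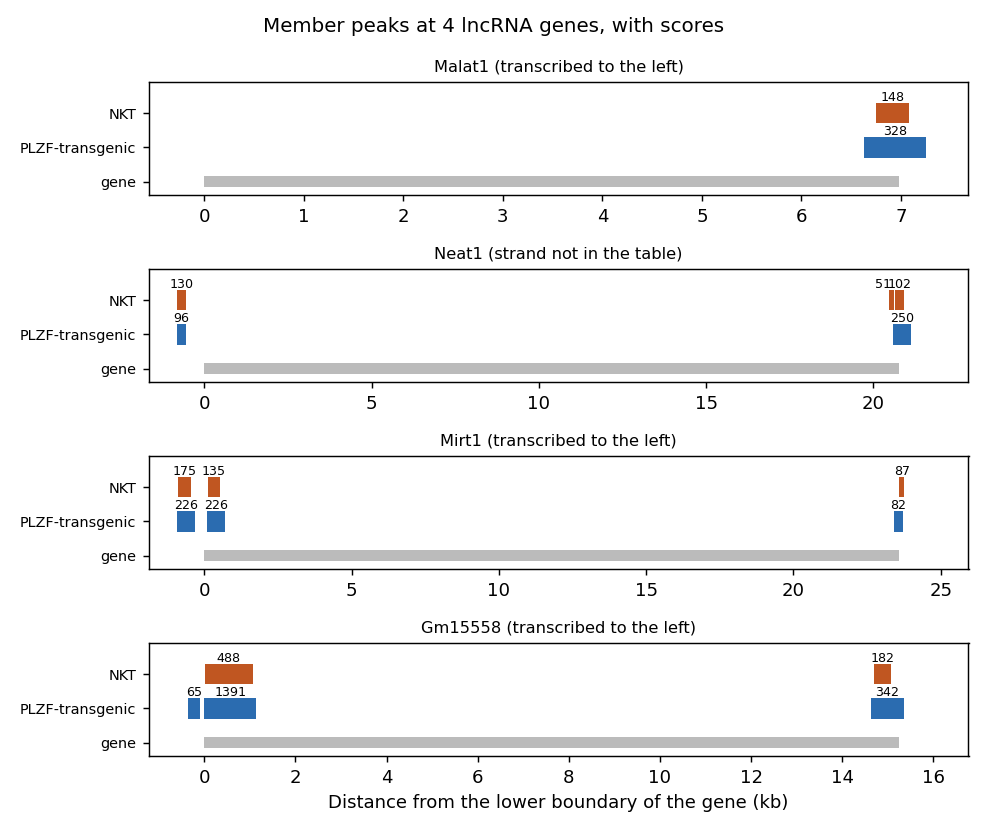
Member peaks along Malat1, Neat1, Mirt1 and Gm15558, plotted by distance from the lower boundary of each gene (kb), with the gene in grey, PLZF-transgenic peaks in blue and NKT peaks in orange, and the score above each peak. Peaks of both libraries stand at the same boundaries, and Neat1, Mirt1 and Gm15558 carry them at both ends.

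Some lncRNA genes held several members. With 3 or more in a list were Gm15558, Mirt1 and A430090L17Rik (3 each in the PLZF-transgenic list), and Gm40741 (4), Gm32510, Mirt1, Neat1 and Gm52627 (3 each in the NKT list). The peaks of A430090L17Rik (174, 114 and 60.3, and 89.4 and 68.9 in NKT) lay side by side at 1 boundary. At Gm52627 a PLZF-transgenic peak of 508 corresponded to NKT peaks of 72.0, 53.5 and 50.9, so that the NKT list counts 1 site as 3. Gm40741, a gene of 2.20 kb that lies near Cdk17, had NKT scores of 264, 245, 88.2 and 58.6, and PLZF-transgenic scores of 155 and 83.5 at the first 2 of these. Both boundaries were occupied at 8 lncRNA genes for PLZF-transgenic and at 7 for NKT members, 5 of them shared (Gm15558, Gm41509, Gm52067, Mirt1 and Neat1).

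Starts held more members than ends. Strand was known for 206 PLZF-transgenic and 153 NKT members, and the nearest boundary was the start of the gene for 132 (64.1%, 57.1 to 70.6%) and 104 (68.0%, 60 to 75.3%). Peaks at protein-coding boundaries lay at starts more often, in 84.7% (81.9 to 87.2%) and 85.3% (82.2 to 88.0%), with intervals apart from those of the members. Of overlapped PLZF-transgenic members 68.4% lay at starts and of the others 60.4%, and for NKT members these shares were 68.3% and 67.3%, with intervals that meet. The rule leaves out lncRNA starts that share a promoter region with a coding gene. It removed 93 of 371 PLZF-transgenic and 80 of 311 NKT peaks that lay within 1 kb of an lncRNA boundary.

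Midpoints gathered at starts and spread out at ends. Within 250 bp of the boundary lay 65 of the 132 PLZF-transgenic members at starts (49.2%, 40.4 to 58.1%) and 17 of the 74 at ends (23.0%, 14 to 34.2%). For NKT members these were 54 of 104 (51.9%, 41.9 to 61.8%) and 10 of 49 (20.4%, 10.2 to 34.3%). The median position relative to starts was -2.25 bp in the PLZF-transgenic list (quartiles -256 to 248 bp) and -6.5 bp in the NKT list (-290 to 212 bp), with negative values upstream. Of the members at starts, 49.2% and 46.2% had their midpoint inside the gene. Median scores at starts and ends were 114 and 101 for PLZF-transgenic members and 75.1 and 93.9 for NKT members.

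**Figure D4:**
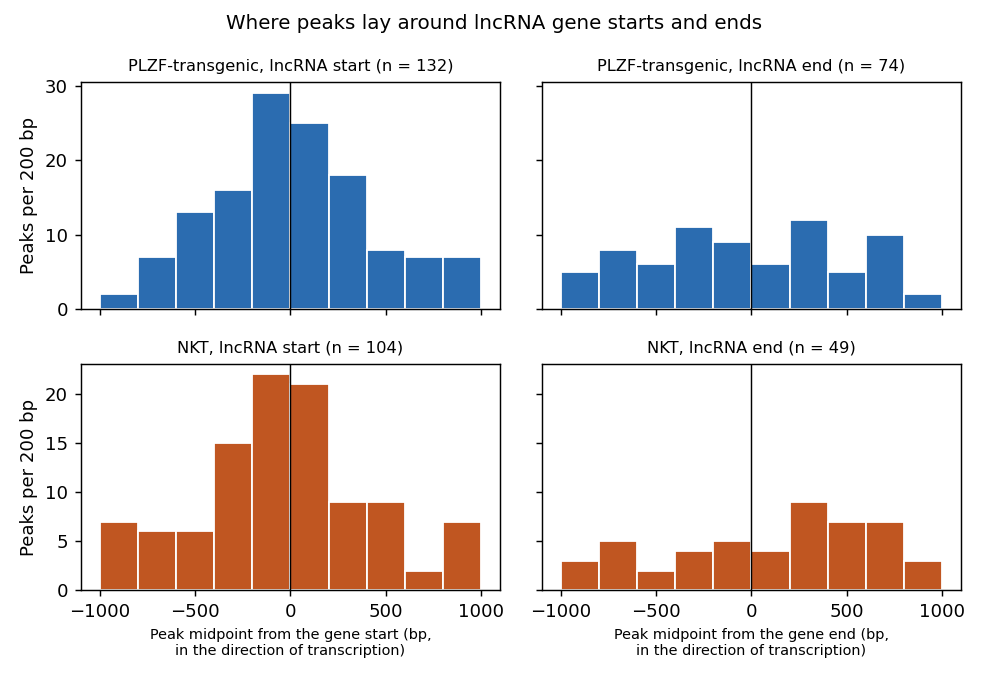
Number of member peaks per 200 bp by the position of the midpoint relative to the start (left) or end (right) of the lncRNA gene, in bp along the direction of transcription, for the PLZF-transgenic (top) and NKT (bottom) lists. Members at starts (132 and 104) pile up around 0, and those at ends (74 and 49) form no such heap.

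Most members lay at numbered gene models, as do most lncRNA genes. Numbered Gm gene models made up 78.1% and 75.8% of members and 79.6% of all lncRNA genes, and Rik clones 12.6% and 13.4% of members and 14.1% of genes. Genes with a curated (NR) record held 34.9% (29.3 to 40.8%) of PLZF-transgenic and 36.4% (30.2 to 42.9%) of NKT members, where they are 26.1% of lncRNA genes. Symbols outside the numbered, clone, antisense and host classes, such as Malat1, Neat1 and Mirt1, made up 4.32% (2.25 to 7.42%) and 6.93% (4.01 to 11%), and 2.01% of genes. These shares count peaks on one side and genes on the other. A gene can enter more than once, as 21 and 30 lncRNA genes held 2 or more members. The intervals do not allow for this, and nothing is read from the differences. The median length of lncRNA genes with a member was 6.60 kb and 6.21 kb, against 8.40 kb over all of them. Only 5 and 8 members lay within 1 kb of more than 1 lncRNA gene, among them the peak at C030013C21Rik and Gm31109 (361.9 and 339.6).

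Members lay outside coding genes more often than other peaks, but the rule itself picks places by gene annotation. The share of all lncRNA boundaries that lie inside coding genes was not computed. The difference is thus not read as a trait of the peaks. Inside a protein-coding gene were 90 of 278 PLZF-transgenic members (32.4%, 26.9 to 38.2%) and 68 of 231 NKT members (29.4%, 23.6 to 35.8%). Among peaks away from lncRNA and coding boundaries the shares were 56.3% (54.8 to 57.9%) and 54.0% (52.3 to 55.8%). A further 21.9% and 25.5% of members lay within 10 kb of a coding gene, 38.1% and 34.6% at 10 to 100 kb, and 7.55% and 10.4% beyond 100 kb. The median distance to the nearest coding boundary was 16.4 and 16.2 kb.

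Of 41 listed genes of T cell receptor signalling, 6 (14.6%) were the nearest coding gene of a PLZF-transgenic member and 5 (12.2%) of an NKT member, and 36 and 30 were the nearest gene of some peak. Of all 21631 coding genes, 1.08% and 0.809% were nearest to a member and 13.8% and 11.8% to some peak. This list and the T cell lists that follow were also chosen with earlier results known. Nothing is read from the differences. Rhoh, which encodes a GTPase needed for receptor signalling, lay 13.8 kb from the NKT peak at Gm32474 (287, and 439.8 in the PLZF-transgenic list) and 3.38 kb from that at Gm3521 (122 and 109). Rasgrp1 had the members at Gm13982 given above, and in the NKT list also Gm32137 (69.3). Near Cd5, an inhibitory receptor gene, the start of A430093F15Rik scored 184 and 122. Inside Slamf6, which encodes a receptor used in NKT cell selection, the start of Gm37065 scored 176 and 115. Only the PLZF-transgenic list had a member near Cd2 (Gm32803, 131).

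Of 51 T lineage transcription factor genes, 8 were nearest to a PLZF-transgenic and 3 to an NKT member (35 and 33 to any peak). Gm40679, 30.7 kb from Egr2, which encodes a factor that NKT cells need, had scores of 336 and 123. Gm41509, 77.3 kb from Ets2 by its higher NKT peak, had a peak at each boundary in both libraries (77.9 and 64.0, and 103 and 76.1), of which only those at the end overlapped. Gm20098 near Satb1, a chromatin organiser of thymocytes, had 66.1 and 75.2. In the PLZF-transgenic list alone, Gm32633 lay 48.2 kb from Klf13 (189.9) and Gm30281 inside Runx1 (137).

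Of 55 cytokine, chemokine receptor and effector genes, 6 and 4 were nearest to a member (35 and 28 to any peak). Gm35813, 18.3 kb from the integrin gene Itga4, had scores of 252 and 179. Gm46811, inside the interleukin 6 receptor gene Il6ra, had 128 and 171, and Gm31897 near Itgal, which encodes an LFA-1 subunit, 109.8 and 52.4. For Tgfbr2 the members of the libraries were different places, Gm4668 (PLZF-transgenic, 120.5) and Gm31292 inside the gene (NKT, 50.8). Near Cd69 (2310001H17Rik, 275) and Tgfbr1 (Gm32435, 67.6) only the PLZF-transgenic list had a member, a difference that 1 library each cannot test. Of 15 B cell and 15 myeloid marker genes none was nearest to a member, and of 15 stroma genes 1 was, Epcam with an NKT peak of 52.1 at a distance of 65.0 kb. Any peak was nearest to 1 and 3 of the B cell, 4 and 2 of the myeloid and 0 and 1 of the stroma genes, too few to say anything of members.

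Promoter windows under members were then compared with those of other lncRNA genes, using the outermost start of each of 9520 genes with a window. A PLZF-transgenic member overlapped 84 windows, an NKT member 55, and both 38. Some of these windows are largely the same DNA under 1 peak, as at C030013C21Rik and Gm31109 or at Gm46405 and Gm52067. They were counted separately, and the intervals do not allow for it. The core of RUNX sites, TGTGGT, searched on both strands like all motifs here, was in 28 of 84 (33.3%, 23.4 to 44.5%) and 17 of 55 (30.9%, 19.1 to 44.8%), and in 20.2% of all lncRNA windows. The E-box CAGGTG was in 31.0% (21.3 to 42.0%) and 30.9% (19.1 to 44.8%), against 21.5% of all. The E-box CAGCTG was in 31.0% (21.3 to 42.0%) and 30.9% (19.1 to 44.8%), against 17.9%. Of the windows shown, those of Rptoros, C030013C21Rik, Gm31109 and Gm34999 hold the first E-box, that of Malat1 the second, and that of Gm13982 the second and the RUNX core.

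The ETS letters CCGGAAG were in 4.76% (1.31 to 11.7%) and 9.09% (3.02 to 20%) of windows under members, against 4.04% of all lncRNA windows. Under peaks at protein-coding genes the same letters stood in 30.1% (26.2 to 34.2%) and 32.3% (27.8 to 37.2%) of windows, against 12.1% of all 17274 coding windows. AP-1 letters, TGANTCA, were in 7.14% (2.67 to 14.9%) and 12.7% (5.27 to 24.5%) of member windows, against 9.55% of all lncRNA windows. The GC box GGGCGG was in 20.2% (12.3 to 30.4%) and 30.9% (19.1 to 44.8%), against 16.8%. Coding windows differ in composition, with a median of 14 CpG against 4 in lncRNA windows. Windows under members had medians of 5 and 6, and coding windows under peaks a median of 18 for either list. Median GC content was 51.3% and 51.7% in windows under members and 48.7% in all lncRNA windows. The motif shares were not adjusted for composition, and nothing is read from their differences. The E-boxes and the other motifs can overlap one another in a window, and a match is a run of letters, not a shown site.

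At the limit of the rule, the members farthest from a boundary were Gm41308 (998 bp, PLZF-transgenic score 54.2), Gm40491 (994.5 bp, NKT, 93.9) and 1810021M19Rik (992 bp, NKT, 66.8). Just outside were peaks at Gm36027 (1002.5 bp, NKT, 55.8), Gm34647 (1004.5 bp, PLZF-transgenic, 568) and Gm30726 (1011 bp, PLZF-transgenic, 186). The Gm34647 site thus counts as a member in the NKT list only, although both lists have an overlapping peak there.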

How the data were processed

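The streptavidin ChIP-seq files are 1 list of peaks for each pull-down, without a header. The last column of the deposited lists is the score. Peak names begin with MACS, whose early versions write -10 times the log10 of the p-value there, but neither the files nor the labels say so. Bowtie, Picard, HOMER and the build mm10 are named, without versions, per the submitters' processing notes. The peak caller's control and settings are not given. The 2 input libraries were not analysed here.

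Starts were raised by 1 base to 1-based coordinates. Of 5198 and 4246 peaks, 7 and 7 on chromosome M or Y were left out. Gene spans and biotypes came from RefSeq's GRCm38.p6 gene table, and strand and promoter windows from its promoter table, which holds 75.0% of the lncRNA genes. A member belongs to the lncRNA gene with the nearest boundary, and its nearest coding gene is the closest span within 100 kb. Overlap means at least 1 bp. Shares have exact 95% intervals (scipy 1.17.1, pandas 2.3.3). The member rule and the overlap were tested on simulated peaks. The members, gene lists and alternatives were chosen with earlier results of these data known. The lists hold regulatory lncRNAs, snoRNA hosts, T cell receptor signalling, T lineage factors, cytokine and chemokine receptor and effector genes, and markers of B, myeloid and stroma cells. Genes were named by rule: the 10 highest members and the 5 highest without overlap in each list, list genes with a member, up to 4 coding genes per T cell list with members in both lists and up to 2 in 1, genes with 3 or more members, and members next to the 1 kb limit. A listed gene near members of both lists is not reported here.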

Additional observations from a re-analysis of the deposited data

How the results depend on the processing

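Of 183 values under 12 alternatives, 150 stayed within the 95% interval of the reported value or, for counts, within 1.5 times it, and 33 moved. Values are given for the PLZF-transgenic list first, then NKT. The number of members, 278 and 231, was 185 and 152 with a 500 bp window, 448 and 368 with 2 kb, 140 and 127 with the top 50% of each list by score, and 98 and 85 with curated lncRNA genes only. The overlapped share, 50% and 66.2%, was 30.9% and 36.8% with a reciprocal overlap of 50%. With midpoints within 1 kb the NKT share was 72.7%, and with the top 50% the PLZF-transgenic share was 57.9%. The share of all peaks under either setting was not computed, so these values say nothing particular to members. PLZF-transgenic members that overlap an NKT member, 134, numbered 217 with 2 kb, 80 with the top 50%, 52 with curated genes and 84 with reciprocal overlap. With the top 50%, which keeps high scores by construction, median scores were 212 and 122 and median widths 548.5 and 329 bp. With peaks within 500 bp of each other merged, an alternative chosen after seeing the data, the NKT median width was 254 bp. The PLZF-transgenic share at starts was 71.1% with curated genes.

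Counts of listed genes near members are small. T cell receptor signalling genes near NKT members were 3 of 41 when peaks within 5 kb of a coding boundary were left out. T lineage factors were 4 (top 50%), 4 (curated genes) and 3 (coding gene within 25 kb) in the PLZF-transgenic list, and 5 (2 kb), 1 (curated) and 0 (25 kb) in NKT. Cytokine, receptor and effector genes were 2 in the PLZF-transgenic list with curated genes, and 7 (2 kb), 2 (top 50%) and 0 (curated) in NKT. Leaving out presumed repeat-rich regions, which hold 1 and 2 members, moved nothing. The cause of these moves was not tested. No paired analysis was possible because each population had 1 library.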
